A study of Mus musculus with 8 samples.

Results

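The genes described here bring amino acids into mouse helper T cells or make serine and glycine inside them. They were taken as a list of names, 7 transporter genes (Slc7a5, Slc3a2, Slc1a5, Slc38a1, Slc38a2, Slc7a1 and Slc7a6) and 3 enzyme genes (Phgdh, Psat1 and Shmt2), and were found by symbol through the Ensembl identifiers of the count tables. All 10 were found among 39179 listed genes, and all 10 passed the low-count filter, with 314 to 2326 counts in a library. A change in these transcripts is a change in bulk RNA of sorted cells, in which fewer cells of a type and less RNA per cell cannot be told apart.

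The libraries came from T cells with the Smarta receptor, a transgenic receptor for a viral peptide, on a background that also carried CreERT2, a Cre recombinase that tamoxifen switches on. The 2 vectors in 2 sorted populations gave 4 groups of 2 libraries, Tfh cells with the Bach2 vector, Tfh cells with empty vector, non-Tfh cells with the Bach2 vector and non-Tfh cells with empty vector. All donor cells were Smarta CreERT2 cells that had been given a retrovirus, either an inducible one for Bach2 or an empty one, and all were moved into C57BL/6 hosts. The hosts were immunized under the skin with nitrophenol and the peptide GP61-80 on mouse serum albumin, tamoxifen followed on day 5 by injection into the abdomen, and inguinal nodes were pooled and the cells taken 18 hours later, on day 6. Donor cells were sorted as Thy-1.1+ and CD44hi, with CXCR5 and PD-1 present on Tfh cells, the helpers of the B cell follicle, and absent from non-Tfh cells. The sources used here give no ages or sexes of the animals, and the labels do not say whether the libraries of a group are separate animals or cultures, so p-values measure only the spread between these samples.

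Activated T cells take up large amounts of amino acids to grow and divide. Leucine and other large neutral amino acids enter through a heterodimer of the light chain SLC7A5 (LAT1), which carries the substrate, and the heavy chain SLC3A2 (CD98), which brings it to the membrane, while glutamine and other neutral amino acids enter through SLC1A5 (ASCT2), SLC38A1 (SNAT1) and SLC38A2 (SNAT2). Serine is made from a glycolytic intermediate by PHGDH, PSAT1 and PSPH in turn, and SHMT2 in mitochondria then splits serine into glycine and a unit for folate metabolism, which feeds purine and thymidylate synthesis. Bach2 is a transcription repressor that binds AP-1-like sites and restrains effector differentiation of lymphocytes.

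Each library held 7862879 to 9889859 counts over 14689 to 15167 genes. Values below are CPM, counts scaled to a common library size, after scaling by trimmed mean of M-values (TMM). Bach2 itself was at 121 and 135 CPM in Tfh cells with its vector, against 11.2 and 14.0 CPM with empty vector, and in non-Tfh cells at 131 and 158 CPM with its vector, against 24.9 and 28.9 CPM with empty vector, so every library stood on the side its label gives. The sort was also visible in Cxcr5, itself a sort marker, which averaged 612 and 754 CPM in Tfh cells with Bach2 and with empty vector, and 20.4 and 22.8 CPM in non-Tfh cells with Bach2 and with empty vector. Of the other Tfh markers, Pdcd1, Bcl6, Il21 and Sh2d1a were likewise higher in Tfh cells with either vector. Icos went the other way, at 564 and 666 CPM in Tfh cells with Bach2 and with empty vector, against 667 and 927 CPM in the same non-Tfh groups. All 6 Tfh markers averaged lower with Bach2 than with empty vector in both sorts. They summed to 2087 to 2432 CPM in Tfh cells with Bach2, against 2612 to 2921 CPM with empty vector. In non-Tfh cells the sums were 896 to 1010 CPM with Bach2 and 1304 to 1384 CPM with empty vector. The 6 T helper markers summed to 9881 to 14145 CPM. Of the markers of other cells, the 6 B cell genes summed to 2.05 to 3.15 CPM in Tfh cells with Bach2, 4.05 to 4.92 CPM in empty vector Tfh cells, 4.52 to 10.4 CPM in non-Tfh cells with Bach2 and 3.45 to 11.6 in non-Tfh cells with empty vector, and the 6 myeloid genes to 4.82 to 13.2 CPM over all libraries. Ncr1 of NK cells and Pdpn of stroma were at 0 in all 8 libraries, but single genes of those lists were not, and moved with the sort. Klrb1c averaged 89.6 and 58.7 CPM in Tfh cells with Bach2 and with empty vector, against 17.1 and 12.96 CPM in non-Tfh cells with Bach2 and with empty vector. Pecam1 averaged 264.9 and 232 CPM in the same Tfh groups, against 190.1 and 182 CPM in the non-Tfh groups. The part of these in the differences below was not tested. Counts of Bach2 hold vector and endogenous transcripts alike.

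Upstream sequence was looked at for the enzymes because 2 of them changed together, and for Slc7a1 because it alone held a site of the AP-1 and Bach type. RefSeq (GRCm38.p6) gave start sites for 7 of the 10 genes, in 10 windows of 250 bases, with 2 each for Slc7a1, Slc7a6 and Psat1. Those 7 were Slc3a2, Slc38a2, Slc7a1, Slc7a6, Phgdh, Psat1 and Shmt2. The windows below run 5′ to 3′ and end at the base before the annotated start, with motif matches in capitals. All 4 genes lie on the minus strand, and the windows are chr3:98339970-98340219 for Phgdh, chr19:15925060-15925309 for Psat1, chr10:127522445-127522694 for Shmt2 and chr5:148399905-148400154 for Slc7a1. For Psat1 and Slc7a1 the first of the 2 windows is shown, and both Psat1 windows lie inside the longer span that GENCODE gives that gene.
Phgdh: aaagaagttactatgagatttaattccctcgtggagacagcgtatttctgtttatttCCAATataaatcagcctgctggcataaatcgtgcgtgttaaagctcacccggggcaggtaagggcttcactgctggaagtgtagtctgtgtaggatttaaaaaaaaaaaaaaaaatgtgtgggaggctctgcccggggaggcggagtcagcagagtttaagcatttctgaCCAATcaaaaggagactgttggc
Psat1: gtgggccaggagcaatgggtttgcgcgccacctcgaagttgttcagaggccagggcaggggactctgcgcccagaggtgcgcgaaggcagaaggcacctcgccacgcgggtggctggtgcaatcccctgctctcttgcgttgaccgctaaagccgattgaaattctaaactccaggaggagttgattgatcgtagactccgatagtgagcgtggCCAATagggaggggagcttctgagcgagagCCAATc
Shmt2: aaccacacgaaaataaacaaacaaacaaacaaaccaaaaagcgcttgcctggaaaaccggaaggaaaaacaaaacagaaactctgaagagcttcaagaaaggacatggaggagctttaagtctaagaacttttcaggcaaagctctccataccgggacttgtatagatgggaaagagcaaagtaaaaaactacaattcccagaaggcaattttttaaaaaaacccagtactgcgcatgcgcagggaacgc
Slc7a1: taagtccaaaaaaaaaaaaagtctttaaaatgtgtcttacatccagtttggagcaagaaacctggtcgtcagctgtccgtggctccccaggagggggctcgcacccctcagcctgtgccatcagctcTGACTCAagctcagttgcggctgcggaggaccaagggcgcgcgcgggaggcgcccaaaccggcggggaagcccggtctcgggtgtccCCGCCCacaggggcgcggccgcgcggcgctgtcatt
The 5 motifs searched on both strands were the AP-1 and Bach-type core TGANTCA, the amino acid response element core TGATGNAA, the Myc E-box CACGTG, the CCAAT box CCAAT and the GC box GGGCGG. They do not overlap one another in these windows, and the CCAAT and GC boxes were added after the sequences had been read. The Phgdh window held CCAAT at bases 193 to 189 and 23 to 19 before the start, and the Psat1 window shown at bases 36 to 32 and 6 to 2. The other Psat1 window held no CCAAT and a GC box at bases 11 to 6 before its start. Among 32851 windows of that length before RefSeq start sites, 33.8% held CCAAT. The Slc7a1 window shown held TGACTCA at bases 123 to 117 before the start, a motif found in 6.75% of all windows, and a GC box at bases 36 to 31, found in 32.7%, while the other Slc7a1 window held none of the 5 motifs. None of the 10 windows held TGATGNAA, found in 3.45% of all windows, or CACGTG, found in 6.02%, and the Shmt2 window held none of the 5 motifs. A match describes letters and is no evidence of binding. Slc7a1 did not change past the threshold with the Bach2 vector in either cell type, as given with its levels.

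Per kilobase of exon, a rough scale for setting levels of different genes side by side, Phgdh had the highest level of the 10 and Slc7a1 the lowest. The length joins all annotated exons of a gene and is not that of a single transcript. Over the 8 libraries Phgdh averaged 57.6 CPM per kb, above 91.4% of the 11381 tested genes with a known length. Slc1a5 followed at 50.2, Slc3a2 at 40.0, Psat1 at 29.7, Shmt2 at 26.8 and Slc7a5 at 19.8 CPM per kb. The remaining transporters lay at 15.1 for Slc38a2, 13.1 for Slc38a1, 9.44 for Slc7a6 and 3.62 CPM per kb for Slc7a1, the last above 34.1% of genes. Slc7a5 had the widest relative range of these levels, from 10.6 to 29.7 CPM per kb over the 8 libraries.

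**Figure D1:**
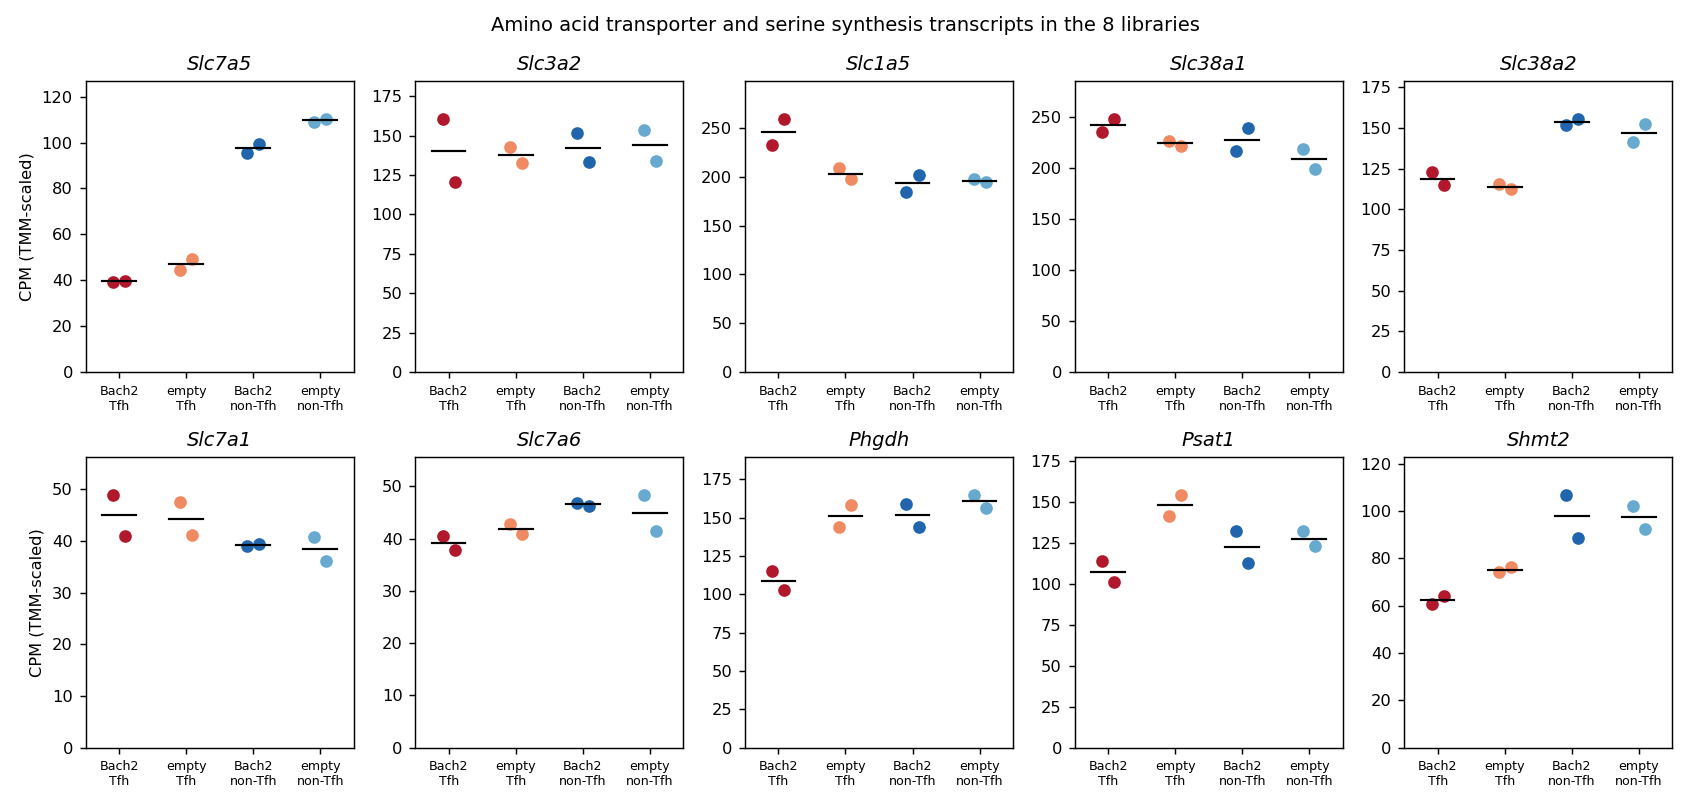
Levels of the 10 genes in each library, in CPM after TMM scaling (vertical axis, from 0), with 1 panel a gene and 1 point a library; bars mark the mean of the 2 libraries of a group. Slc7a5 sits at 39.3 to 49.5 CPM in the 4 Tfh libraries and at 95.5 to 110.3 CPM in the 4 non-Tfh libraries, while Slc3a2 spans 120.3 to 161 CPM with no such split.

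Slc7a5 (chromosome 8, 121881150 to 121907694 of GRCm38) stood lower in the Tfh sort than in the non-Tfh sort with either vector. In Tfh cells it had 39.3 and 39.9 CPM with Bach2 and 44.3 and 49.5 CPM with empty vector. In non-Tfh cells it had 95.5 and 99.5 CPM with Bach2 and 109 and 110.3 CPM with empty vector. Every Tfh library lay below every non-Tfh library. With the Bach2 vector the log2 fold change of Tfh against non-Tfh cells was -1.30 (SE 0.104, 95% interval -1.52 to -1.08), a level 0.406 times that of non-Tfh cells, with adjusted p = 1.12e-06 (edgeR's quasi-likelihood test, Benjamini-Hochberg adjustment over 11475 genes). With empty vector it was -1.23 (SE 0.103, interval -1.45 to -1.01), a level 0.427 times that of non-Tfh cells (adjusted p = 1.40e-06). The order of the 4 groups was non-Tfh cells with empty vector, non-Tfh cells with Bach2, Tfh cells with empty vector and Tfh cells with Bach2. The libraries of neighbouring groups in this order did not overlap, but the steps within a cell type were not past the threshold, as given with the vector comparisons.

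Its partner Slc3a2 (chromosome 19, 8706882 to 8723369) had 161 and 120.3 CPM in Tfh cells with Bach2, 143 and 133 CPM in Tfh cells with empty vector, 151 and 133 CPM in non-Tfh cells with Bach2, and 154 and 134 CPM in non-Tfh cells with empty vector. The groups overlapped in every comparison, and the library numbered 1 was the higher of the 2 in all 4 groups. The Tfh against non-Tfh difference of Slc3a2 was -0.02 with Bach2 (interval -0.30 to 0.26, adjusted p = 0.938) and -0.06 with empty vector (interval -0.34 to 0.22, adjusted p = 0.800), so neither interval reached the difference of Slc7a5. Per kb of exon, the level of Slc7a5 over that of Slc3a2 was 0.233 and 0.315 in Tfh cells with Bach2 and 0.295 and 0.354 with empty vector. In non-Tfh cells it was 0.600 and 0.710 with Bach2 and 0.676 and 0.782 with empty vector. The light chain transcript was thus below the heavy chain transcript in all 8 libraries, and the ratio of every Tfh library lay below that of every non-Tfh library. Slc3a2 also serves as the heavy chain of other light chains, among them SLC7A6.

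**Figure D2:**
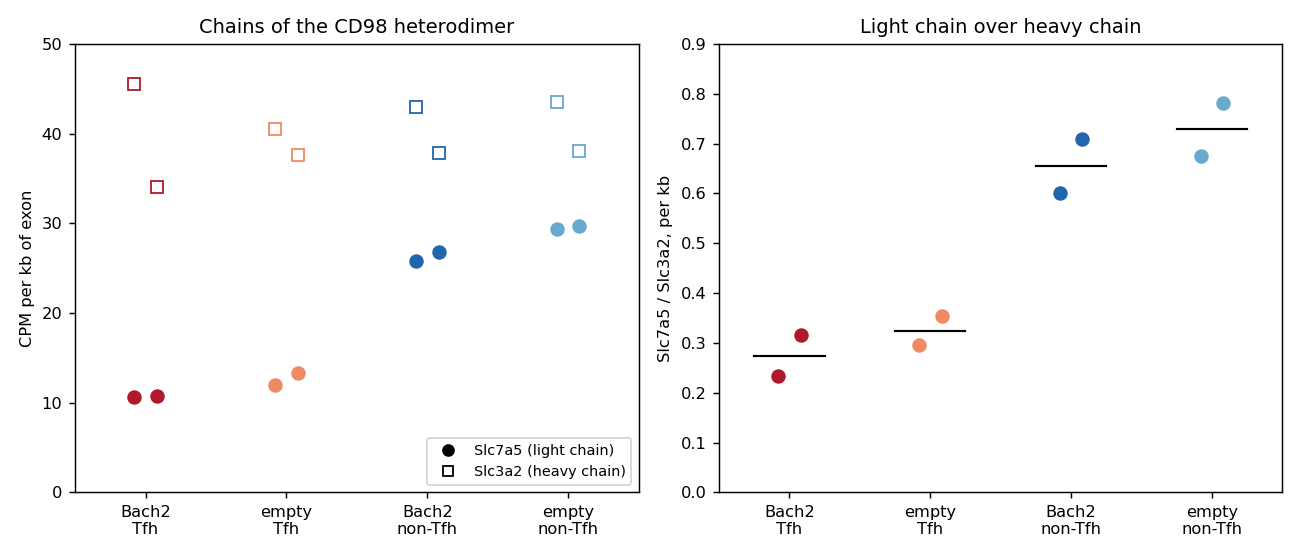
Left, CPM per kb of exon (from 0) of the light chain gene Slc7a5 and the heavy chain gene Slc3a2 in each library of the 4 groups; right, the light chain level over the heavy chain level per kb, 1 point a library. The ratio lies between 0.233 and 0.354 in the Tfh libraries and between 0.600 and 0.782 in the non-Tfh libraries.

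Slc7a6 (chromosome 8, 106168857 to 106198706), which encodes the light chain y+LAT2 that exchanges basic and neutral amino acids, had 40.5 and 37.9 CPM in Tfh cells with Bach2 and 42.7 and 40.9 CPM with empty vector. In non-Tfh cells it had 46.9 and 46.3 CPM with Bach2 and 48.4 and 41.4 CPM with empty vector. Its Tfh libraries with Bach2 lay below all others, but the Tfh against non-Tfh difference was not past the threshold with Bach2 (-0.25, interval -0.52 to 0.02, adjusted p = 0.171) or with empty vector (-0.10, interval -0.37 to 0.16, adjusted p = 0.620). Slc7a1 (chromosome 5, 148327410 to 148399904), the arginine and lysine transporter CAT1, had 48.9 and 40.9 CPM in Tfh cells with Bach2, 47.5 and 41.1 CPM in Tfh cells with empty vector, 39.0 and 39.4 CPM in non-Tfh cells with Bach2, and 40.7 and 36.1 CPM in non-Tfh cells with empty vector. Every Tfh library was above every non-Tfh library, though the lowest Tfh library had 40.9 CPM, against 40.7 CPM in the highest non-Tfh library. The fitted differences were 0.20 with Bach2 (interval -0.09 to 0.49, adjusted p = 0.325) and 0.21 with empty vector (interval -0.08 to 0.50, adjusted p = 0.313). For the Bach2 vector against empty vector, edgeR's test gave Slc7a1 a change of 0.02 in Tfh cells (interval -0.27 to 0.31, adjusted p = 0.961). In non-Tfh cells its change was 0.03 (interval -0.26 to 0.32, adjusted p = 0.973).

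Of the 3 transporters of glutamine and other neutral amino acids, Slc38a2 was lower in Tfh cells with either vector, Slc1a5 was higher in Tfh cells with the Bach2 vector, and Slc38a1 passed no test. Slc38a2 (chromosome 15, 96687392 to 96699730), which many cells induce when amino acids run short, had 123 and 115 CPM in Tfh cells with Bach2 and 115 and 112 CPM with empty vector. In non-Tfh cells it had 152 and 155 CPM with Bach2 and 141 and 153 CPM with empty vector, so that all Tfh libraries lay below all non-Tfh libraries. The difference was -0.37 with Bach2 (SE 0.0858, adjusted p = 0.00562) and -0.37 with empty vector (SE 0.0860, adjusted p = 0.00701). The empty vector call was lost without Tfh replicate 2 (adjusted p = 0.0505) or non-Tfh replicate 2 (adjusted p = 0.105).

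Slc1a5 (chromosome 7, 16781340 to 16798274) had 232 and 259 CPM in Tfh cells with Bach2, above all other libraries. It had 209 and 198 CPM in Tfh cells with empty vector, 184 and 202 CPM in non-Tfh cells with Bach2, and 198 and 194 CPM in non-Tfh cells with empty vector. With the Bach2 vector the Tfh level was higher (0.35, SE 0.0870, adjusted p = 0.00945), a call that was lost without Bach2 Tfh replicate 2 (adjusted p = 0.0768) or Bach2 non-Tfh replicate 1 (adjusted p = 0.0953). With empty vector the difference was 0.05 (interval -0.13 to 0.24, adjusted p = 0.731).

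Slc38a1 (chromosome 15, 96571418 to 96642913), on the same chromosome as Slc38a2, had 236 and 248 CPM in Tfh cells with Bach2, 226 and 222 CPM in Tfh cells with empty vector, 217 and 239 CPM in non-Tfh cells with Bach2, and 218 and 199 CPM in non-Tfh cells with empty vector. Its Tfh against non-Tfh differences were 0.09 with Bach2 (interval -0.10 to 0.27) and 0.10 with empty vector (interval -0.08 to 0.29). Per kb, the level of Slc38a1 over that of Slc38a2 was 0.986 and 1.11 in Tfh cells with Bach2, 1.01 and 1.01 in empty vector Tfh cells, 0.732 and 0.788 in non-Tfh cells with Bach2, and 0.793 and 0.667 in non-Tfh cells with empty vector. The ratio was therefore higher in every Tfh library than in every non-Tfh library. Its size rests on exon lengths of 17236 bases for Slc38a1 and 8838 for Slc38a2, which join all annotated exons of a gene. In CPM Slc38a1 was above Slc38a2 in every library, so which transcript was the more abundant is not settled.

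The first enzyme of serine synthesis, Phgdh (chromosome 3, 98313170 to 98339990), fell with the Bach2 vector in Tfh cells. It had 115 and 103 CPM with Bach2, against 144 and 158 CPM with empty vector, and the libraries did not overlap. The log2 fold change was -0.47 (SE 0.0959, interval -0.68 to -0.26), a level 0.722 times that with empty vector, with adjusted p = 0.0245 (edgeR's quasi-likelihood test, Benjamini-Hochberg adjustment). In non-Tfh cells Phgdh had 159 and 144 CPM with Bach2 and 165 and 156 CPM with empty vector. These overlapped, and the change was -0.08 (interval -0.29 to 0.12, adjusted p = 0.839). An annotated pseudogene, Phgdh-ps1, resembles the gene but had no entry under that name in the counts. The sources used here do not give the counting rule for reads that match several places, so how shared reads were counted is not known. The mean level of Phgdh was highest in non-Tfh cells with empty vector (161 CPM), then near equal in non-Tfh cells with Bach2 (151.5 CPM) and Tfh cells with empty vector (151.1 CPM), with overlapping libraries in each of these 3 groups, and lowest in Tfh cells with Bach2 (109 CPM).

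Psat1 (chromosome 19, 15904678 to 15947337), the next enzyme of the pathway, changed likewise. In Tfh cells it had 114 and 101 CPM with Bach2, against 141 and 155 CPM with empty vector, with no overlap. Its log2 fold change was -0.46 (SE 0.103, interval -0.68 to -0.24), a level 0.728 times that with empty vector (adjusted p = 0.0378). In non-Tfh cells it had 132 and 113 CPM with Bach2 and 132 and 123 CPM with empty vector, a change of -0.06 (interval -0.28 to 0.16, adjusted p = 0.918).

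Shmt2 (chromosome 10, 127517123 to 127522444) had 60.8 and 64.3 CPM in Tfh cells with Bach2, against 74.3 and 76.3 CPM with empty vector. The libraries did not overlap, but the change of -0.27 (SE 0.113, interval -0.51 to -0.03) was not past the threshold (adjusted p = 0.261). In non-Tfh cells it had 107 and 88.8 CPM with Bach2 and 102 and 92.6 CPM with empty vector, a change of 0.01 (interval -0.23 to 0.24, adjusted p = 0.993). Shmt2 shares 32 exonic bases with Ndufa4l2 on the opposite strand, which had 0 counts in all libraries.

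Across the 10 genes, 2 fell and 0 rose with the Bach2 vector in Tfh cells, where 1.71% of all genes tested changed and 1.16% fell. The median change of the 10 was -0.04, against a median of 0.00 over all genes. By edgeR 5 of the 10 had unadjusted p below 0.05, 4 lower and 1 higher, as did 1823 of all 11475 genes, and DESeq2 called the same number lower (2) and 0 higher. The 3 that missed the adjusted threshold were Slc1a5 (0.27, SE 0.0870, interval 0.09 to 0.46, adjusted p = 0.133), Slc7a5 (-0.24, SE 0.107, interval -0.47 to -0.01, adjusted p = 0.284) and Shmt2. The calls on both enzymes were lost when 1 library was left out. Leaving out Bach2 Tfh replicate 2 gave adjusted p = 0.185 for Phgdh and 0.237 for Psat1, and leaving out empty vector Tfh replicate 2 gave 0.228 and 0.293. The Psat1 call was also lost without empty vector non-Tfh replicate 1 or 2. Those libraries are not part of the comparison, but each such fit repeated the filter, the scaling, the estimate of the spread and the adjustment.

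In non-Tfh cells 0 of the 10 changed with the vector by edgeR's quasi-likelihood test, where 0.871% of all genes did, and 0 of the 10 had unadjusted p below 0.05 by edgeR or by DESeq2, against 1188 of 11475 genes by edgeR. Their changes ran from -0.17 for Slc7a5 (interval -0.38 to 0.04, adjusted p = 0.601) to 0.13 for Slc38a1 (interval -0.06 to 0.31). Averaged over both cell types, Phgdh alone fell (-0.28, SE 0.0673, adjusted p = 0.0305), 1 of the 10 where 5.27% of all genes changed and 2.9% fell. Psat1 (-0.26, adjusted p = 0.0554) and Slc7a5 (-0.21, adjusted p = 0.117) were not past the threshold. The average call on Phgdh was lost without Bach2 Tfh replicate 2 (adjusted p = 0.107), empty vector Tfh replicate 2 (adjusted p = 0.124), Bach2 non-Tfh replicate 2 (adjusted p = 0.135), or empty vector non-Tfh replicate 1 or 2 (adjusted p = 0.118 and 0.0869).

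Whether the vector effect differed between the cell types was tested directly, as the Tfh effect minus the non-Tfh effect. By edgeR 0 of the 10 passed, as did 0% of all genes (539 of 11475 had unadjusted p below 0.05), and by DESeq2 also 0 of the 10. By either tool 3 of the 10 had unadjusted p below 0.05. In edgeR these were Phgdh (-0.39, interval -0.67 to -0.10, adjusted p = 0.892), Psat1 (-0.40, interval -0.71 to -0.09, adjusted p = 0.898) and Slc1a5 (0.29, interval 0.03 to 0.56, adjusted p = 0.985). A vector effect on the enzymes that differs between Tfh and non-Tfh cells was thus not shown by this test.

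**Figure D3:**
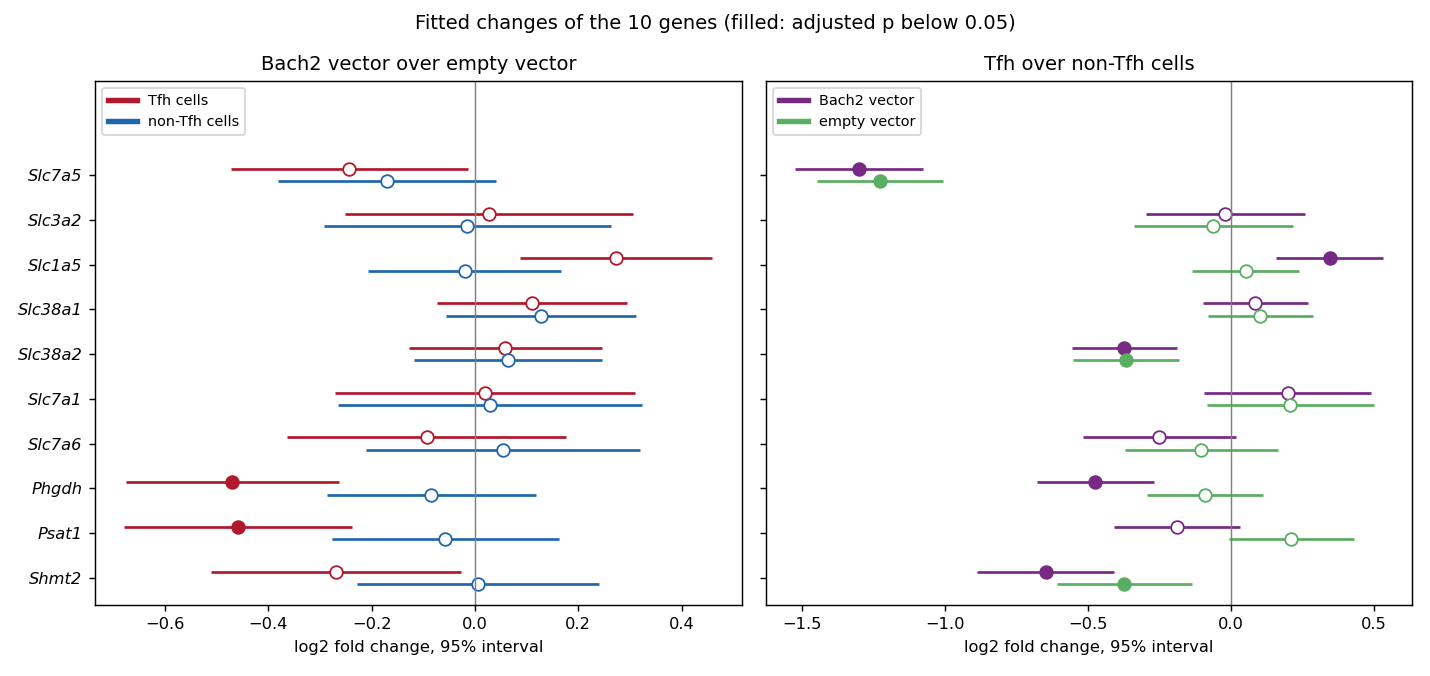
Fitted log2 fold changes (horizontal axis) with 95% intervals for each of the 10 genes, for the Bach2 vector against empty vector in Tfh and in non-Tfh cells and for Tfh against non-Tfh cells with each vector; filled points have adjusted p below 0.05. Phgdh at -0.47 and Psat1 at -0.46 are the filled points of the vector comparison, and Slc7a5 at -1.30 and -1.23 lies farthest from 0 in the cell type comparison.

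Among the enzymes, the Tfh level of Shmt2 was below the non-Tfh level with either vector, and that of Phgdh with the Bach2 vector. The difference of Shmt2 was -0.65 with Bach2 (SE 0.112, adjusted p = 0.000725) and -0.37 with empty vector (SE 0.111, adjusted p = 0.0266), with no overlap of libraries in either. The empty vector call was lost without any 1 of its 4 libraries, with adjusted p = 0.139 and 0.0795 without Tfh replicates 1 and 2 and 0.200 and 0.0631 without non-Tfh replicates 1 and 2. The difference of Phgdh was -0.47 with Bach2 (SE 0.0957, adjusted p = 0.00230), while with empty vector its difference was -0.09 (interval -0.29 to 0.11, adjusted p = 0.564). Psat1 differed by -0.19 with Bach2 (interval -0.41 to 0.03, adjusted p = 0.213) and by 0.21 with empty vector (interval -0.01 to 0.43, adjusted p = 0.162). Its highest level was in Tfh cells with empty vector, followed by non-Tfh cells with empty vector, non-Tfh cells with Bach2 and Tfh cells with Bach2, and each of the last 3 groups overlapped its neighbour in that order.

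In total, with the Bach2 vector 4 of the 10 genes were lower in Tfh cells (Slc7a5, Slc38a2, Phgdh and Shmt2) and 1 was higher (Slc1a5), where 24.4% of all genes differed, 12.7% lower and 11.6% higher. With empty vector 3 were lower (Slc7a5, Slc38a2 and Shmt2) and 0 higher by edgeR and by DESeq2, where 21.9% of all genes differed by edgeR, 11.3% lower and 10.6% higher. At unadjusted p below 0.05 it was again 3 of the 10, all lower, against 3853 of 11475 genes, so the share of the 10 was no larger than that of all genes. The medians of the 10 were -0.22 with Bach2 and -0.07 with empty vector, against 0.00 and 0.01 over all genes. The vector comparisons and the cell type comparisons share libraries, so a high or low library moves both.

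Summed CPM of the 7 transporters was 879.9 and 861 in Tfh cells with Bach2, 828 and 796 in empty vector Tfh cells, 885 and 915 in non-Tfh cells with Bach2, and 909 and 868 in non-Tfh cells with empty vector. Summed CPM of the 3 enzymes was 289.9 and 268 in Tfh cells with Bach2, 359.5 and 389 in empty vector Tfh cells, 398 and 346 in non-Tfh cells with Bach2, and 399.6 and 372 in non-Tfh cells with empty vector. The enzyme sum was lowest in both Tfh libraries with Bach2, below all 6 others. The transporter sum was lowest in both Tfh libraries with empty vector, also below all 6 others. Neither sum was tested.

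The rest of the pathway was read from lists of related genes, given as counts and medians. The median of 22 tested genes of 28 listed for serine, glycine and folate metabolism was -0.18 for the vector in Tfh cells, with 18 of 22 below 0. With the Bach2 vector 1 of the 22 fell there, where 1.16% of all genes fell. That gene was Tyms, thymidylate synthase, with 60.2 and 55.1 CPM with Bach2, against 78.9 and 99.0 CPM with empty vector (-0.62, SE 0.132, adjusted p = 0.0300). In non-Tfh cells 0 of the 22 passed by edgeR or DESeq2, where 0.871% of all genes did by edgeR. There 1 of the 22 had unadjusted p below 0.05, against 1188 of 11475 genes by edgeR, and the median was -0.04. Averaged over both cell types, Tyms (-0.40) and Ahcy (-0.46), which hydrolyses S-adenosylhomocysteine, fell, where 2.9% of all genes fell. Psph, the last enzyme of serine synthesis, was picked out after its values were seen, and had 50.5 and 51.9 CPM in Tfh cells with Bach2, against 61.7 and 67.4 CPM with empty vector (-0.33, adjusted p = 0.135).

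Between cell types more of that list differed, with 10 of the 22 lower and 0 higher in Tfh cells with Bach2 (median -0.38) and 6 lower and 0 higher with empty vector (median -0.22), where 12.7% and 11.3% of all genes were lower. At unadjusted p below 0.05 there were 13 and 9 lower and 0 higher with either, where 4043 and 3853 of all 11475 genes differed, and DESeq2 called 8 and 3 lower and 0 higher. Gart, a purine synthesis enzyme that uses formylated folate, had 67.9 and 67.04 CPM in Tfh cells with Bach2, against 112 and 117 CPM in non-Tfh cells with Bach2 (-0.76), and 67.7 and 71.6 CPM in Tfh cells with empty vector, against 123 and 102 CPM in non-Tfh cells with empty vector (-0.69). Mthfd1 of folate interconversion (-0.66 with Bach2 and -0.31 with empty vector), the purine enzyme gene Paics (-0.44 and -0.27) and Shmt1, the cytosolic counterpart of Shmt2 (-0.53 and -0.63), were also lower with both vectors. The purine enzyme gene Pfas was past the threshold with Bach2 (-1.30) and not with empty vector (-0.42, adjusted p = 0.176). Fpgs, which adds glutamates to folate, was not past it with Bach2 (-0.60, adjusted p = 0.0586) and was with empty vector (-0.71).

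Of 12 tested genes among 27 other amino acid transporters, 0 changed with the vector in either cell type by edgeR or DESeq2. By edgeR 1.71% of all genes did in Tfh and 0.871% in non-Tfh cells. At unadjusted p below 0.05 there was 1 of the 12 in each cell type, against 1823 and 1188 of 11475 genes. These vector counts are thus no result about the transporters. With each vector 3 of the 12 were higher and 1 lower in Tfh cells. Between cell types 24.4% of all genes differed with Bach2, 11.6% higher, and 21.9% with empty vector, 10.6% higher. Slc43a1, which encodes LAT3, another carrier of large neutral amino acids, had 10.4 and 9.90 CPM in Tfh cells with Bach2, against 0.873 and 0.822 CPM in non-Tfh cells with Bach2, and 8.13 and 7.72 CPM in Tfh cells with empty vector, against 0.436 and 0.111 CPM in non-Tfh cells with empty vector. Its direction was opposite to that of Slc7a5, by 3.56 with Bach2 (SE 0.366, adjusted p = 8.93e-06) and 4.78 with empty vector (SE 0.456, adjusted p = 4.70e-06), the last resting on 4 and 1 counts in the non-Tfh libraries. Slc1a4, the serine and neutral amino acid carrier ASCT1, was higher in Tfh cells by 2.75 with Bach2 and 2.17 with empty vector, and Slc36a4, a proline and tryptophan carrier, by 0.99 and 0.59. Slc6a6, the taurine transporter, was lower (-0.49 and -0.48).

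**Figure D4:**
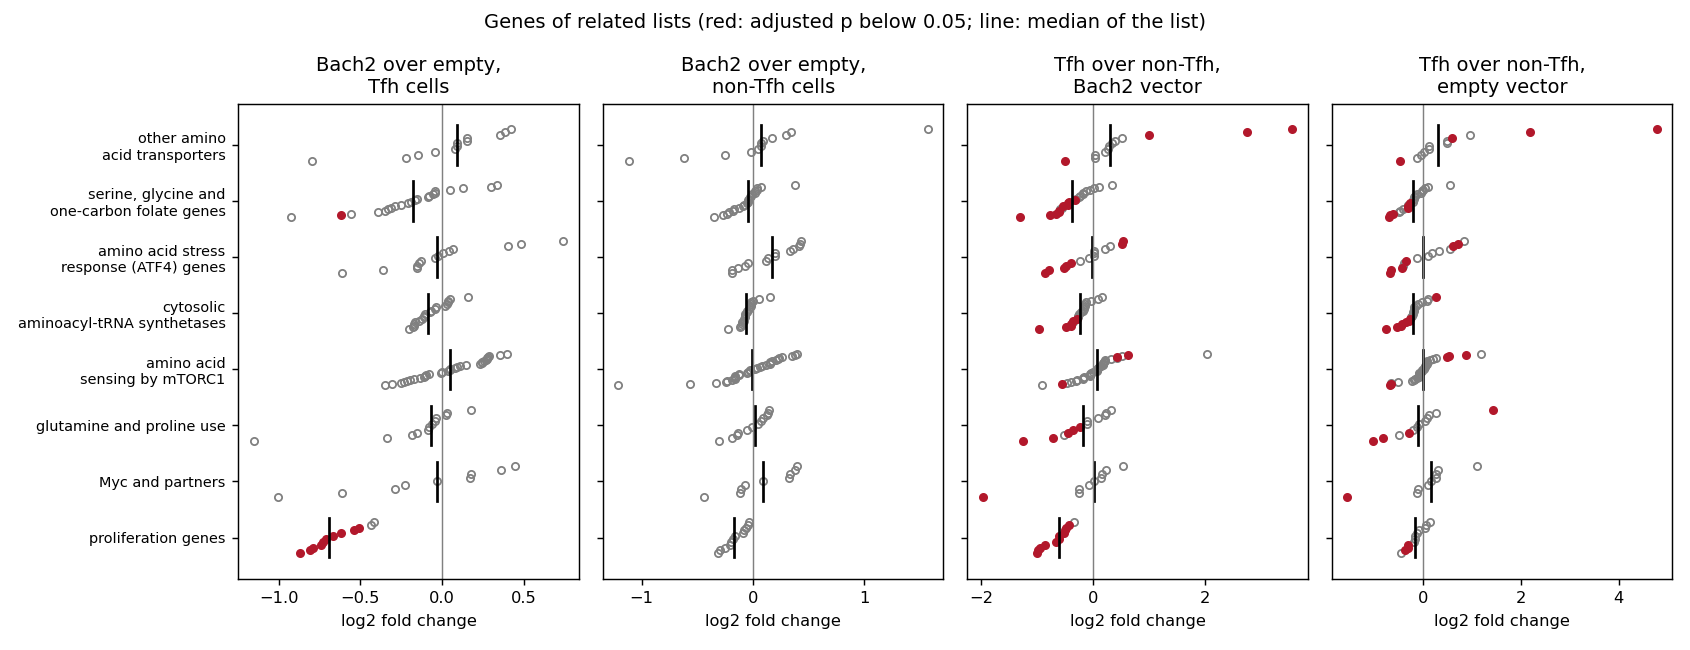
Log2 fold changes (horizontal axis) of the tested genes of each related list, 1 point a gene, red where adjusted p is below 0.05, with a line at the list's median; the panels show the Bach2 vector over empty vector in Tfh and in non-Tfh cells, and Tfh over non-Tfh cells with each vector. In the panel for the vector in Tfh cells the proliferation list has a median of -0.69 and 10 of 12 genes past the threshold, and the serine, glycine and folate list a median of -0.18 and 1 of 22.

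Genes that answer to or use amino acids gave 0 vector calls by edgeR or DESeq2 in either cell type in 4 lists, the amino acid stress response of ATF4 (14 tested of 17), the cytosolic aminoacyl-tRNA synthetases (20 of 20), amino acid sensing by mTORC1 (32 of 32) and glutamine and proline use (12 of 14). At unadjusted p below 0.05 these lists held 1, 1, 4 and 1 genes in Tfh cells and 2, 0, 2 and 0 in non-Tfh cells. Over all genes edgeR called 1.71% in Tfh and 0.871% in non-Tfh cells, with 1823 and 1188 of 11475 at unadjusted p below 0.05. With shares that small, 0 calls in lists of this size are no result about the pathways. The medians of the 4 lists for the vector in Tfh cells were -0.03, -0.09, 0.05 and -0.07. Between cell types, 6 of the 20 synthetases were lower and 0 higher in Tfh cells with Bach2 by edgeR (4 and 0 by DESeq2, 11 and 0 at unadjusted p below 0.05, median -0.23), and 7 lower and 1 higher with empty vector (median -0.22). Of all genes, 24.4% differed with Bach2, 12.7% lower, and 21.9% with empty vector, 11.3% lower. Vars, which charges valine, was lower at -0.96 with Bach2 and -0.78 with empty vector. Gars for glycine (-0.49 and -0.37), Nars for asparagine (-0.39 and -0.45), Kars for lysine (-0.28 and -0.27) and Iars for isoleucine (-0.39 and -0.55) were lower with both vectors too. In the ATF4 list 2 of the 14 genes were higher and 5 lower in Tfh cells with Bach2, and 2 higher and 4 lower with empty vector, against the same shares of all genes. Xpot, which exports transfer RNA from the nucleus, was higher (0.54 and 0.70), as was the mTORC1 inhibitor Ddit4 (0.52 and 0.60). The translation factor gene Eif2s1 was lower with both vectors (-0.39 and -0.44), as were Atf4 itself (-0.48 and -0.37) and Sesn2 (-0.52 and -0.66).

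For amino acid sensing by mTORC1, 2 of 32 genes were higher and 1 lower in Tfh cells with Bach2, where 24.4% of all genes differed, and 3 of 32 were higher and 2 lower with empty vector, where 21.9% did. The list thus held fewer differences for its size than all genes together, and the single genes named from it are no result about the pathway. Rptor, the scaffold of the complex, was lower (-0.56 and -0.69), while Flcn, which acts on the Rag GTPases (0.62 and 0.49), and Nprl3, part of an inhibitory complex (0.44 and 0.53), were higher. Sesn1, a leucine sensor family member, was past the threshold with empty vector (-0.67) and not with Bach2 (-0.46, adjusted p = 0.0561). In the glutamine and proline list, 5 of 12 were lower and 0 higher in Tfh cells with Bach2 by edgeR (4 and 0 by DESeq2, 6 and 0 at unadjusted p below 0.05). With empty vector 3 of 12 were lower and 1 higher. Of all genes, 12.7% were lower with Bach2 and 11.3% with empty vector. The pyrimidine enzyme gene Cad (-1.25 and -1.03), Got1 (-0.71 and -0.84) and Aldh18a1 (-0.35 and -0.29) were lower with both vectors. Oat was past the threshold with Bach2 (-0.44) and not with empty vector (-0.13, adjusted p = 0.425), and Gpt2 was not past it with Bach2 (0.32, adjusted p = 0.605) and was with empty vector (1.42). A gene past the threshold with a single vector is not thereby shown to differ between vectors, and the interaction called 0 of all genes by edgeR and 6 by DESeq2.

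Myc, a transcription factor known to drive amino acid transporter genes in activated T cells, had 19.2 and 29.4 CPM in Tfh cells with Bach2, against 86.4 and 103 CPM in non-Tfh cells with Bach2 (-1.97, SE 0.175, adjusted p = 4.61e-06). With empty vector it had 23.1 and 26.6 CPM in Tfh cells, against 69.6 and 76.5 CPM in non-Tfh cells (-1.56, SE 0.175, adjusted p = 3.38e-05). It was the 1 gene of 9 tested in its list that differed between cell types, where 24.4% of all genes differed with Bach2 and 21.9% with empty vector. The list thus held fewer differences for its size than all genes together, and Myc is named as a single gene. For the vector that list gave 0 calls in either cell type by edgeR or DESeq2. By edgeR 1.71% of all genes changed in Tfh and 0.871% in non-Tfh cells. At unadjusted p below 0.05 the list held 5 genes in Tfh and 3 in non-Tfh cells, against 1823 and 1188 of 11475 genes. The average over both cell types called 1 gene of the list, Mlxip (0.38), where 5.27% of all genes changed. The split of Myc between the cell types ran the same way as that of Slc7a5 in all 8 libraries. For the vector in non-Tfh cells the fitted changes had opposite signs, 0.38 for Myc and -0.17 for Slc7a5, neither past the threshold by edgeR (adjusted p = 0.440 and 0.601). The part of Myc in the Slc7a5 difference was not tested.

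The proliferation list, which shares Tyms with the folate list, fell in the same comparison as Phgdh and Psat1. Of its 12 genes, 10 fell with the Bach2 vector in Tfh cells (median -0.69), where 1.16% of all genes fell. Among the 10 were the replication helicase gene Mcm5 (-0.74), the cyclin gene Ccna2 (-0.79) and the mitosis genes Birc5 (-0.81) and Bub1b (-0.73). In non-Tfh cells 0 fell by edgeR or DESeq2 (3 at unadjusted p below 0.05, median -0.17), where 0.871% of all genes changed by edgeR. In the average over both cell types 9 fell (median -0.44), where 2.9% of all genes fell. Between cell types 11 were lower in Tfh cells with Bach2 (median -0.61) and 3 with empty vector (median -0.17), where 12.7% and 11.3% of all genes were lower. The mitochondrial share of counts was 1.26% and 1.08% in Tfh cells with Bach2, against 1.10% and 0.953% with empty vector. The sums of B cell markers and of Tfh markers were lower in those Bach2 libraries, as given with the library totals. The part of these in the fall of Phgdh and Psat1 was not tested.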

How the data were processed

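The deposited tables hold raw counts of reads for each Ensembl gene, 1 table a library, judged from whole values whose totals differ. Per the submitters' processing notes the authors used TopHat2, Bowtie2 and featureCounts on GRCm38/mm10. The sources used here give no versions, no annotation release and no rule for reads that match several places. Per the labels' protocols, RNA was isolated with an RNeasy Micro kit, Smart-Seq v4 and Nextera XT kits gave the libraries, and a NextSeq500 read them from both ends. These kits do not mark the strand. Symbols, GRCm38 positions and exon lengths came from GENCODE M21, which matched 37607 of 39179 identifiers. The 1572 others held 0.187% to 0.205% of the counts and were fitted too.

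Genes were kept with filterByExpr of edgeR (minimum count 10, minimum total 15), which left 11475. Counts were scaled with TMM factors of 0.985 to 1.01 and fitted in a single model of all 8 libraries, a coefficient for each of the 4 groups, with 4 residual degrees of freedom. The test was edgeR 4.0.16's robust quasi-likelihood test in R 4.3.3, with Benjamini-Hochberg adjustment over all tested genes and a threshold of adjusted p below 0.05. The smallest two-sided p of an exact permutation test with 2 libraries a group is 0.333, so genes were tested only in this model. The SE is the size of the log2 fold change over the root of its F statistic, and intervals are at 95%. The model was run on simulated counts drawn with its own fitted spread, which cannot show how it treats real differences between replicates. No library was a copy of its replicate, since the chi-square between them was 5.98 to 9.37 times its degrees of freedom. Reads carry no molecular identifiers, and depth limits precision through counting error as well.

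The 10 genes and the related lists were chosen with earlier results of these data known. All 10 genes were named, and from each list up to 4 genes per comparison with the smallest adjusted p. Alternatives were relative log expression (RLE) factors, no low-count filter, DESeq2 1.42.0, the replicate number as a block, only the libraries compared, and leaving out each library. The labels do not say whether libraries with the same replicate number share animals or a preparation, so the main model has no block.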

Additional observations from a re-analysis of the deposited data

How the results depend on the processing

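For the vector in Tfh cells, 2 of the 10 genes were called, and 0 to 2 with 1 library left out. For the average over both cell types 1 was called, 0 to 2 with 1 library left out, and 2 with no low-count filter, where Psat1 joined Phgdh (adjusted p = 0.00854). For Tfh against non-Tfh cells, 5 were called with the Bach2 vector and 4 to 5 with 1 library left out, and 3 with empty vector and 1 to 3 with 1 left out. The cause was not tested. The vector in non-Tfh cells and the interaction gave 0 of the 10 under each alternative run. Slc7a5 kept its cell type call in 13 of 13 alternatives with each vector, at -1.33 to -1.27 with Bach2 and -1.30 to -1.15 with empty vector. Phgdh kept its vector call in Tfh cells in 11 of 13 (-0.56 to -0.39) and Psat1 in 9 of 13 (-0.54 to -0.38).

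Signs changed only in small values. Leaving out 1 library gave -0.24 to 0.18 for Slc3a2 between cell types with Bach2 and -0.15 to 0.040 with empty vector, and for the vector in non-Tfh cells -0.14 to 0.14 for Shmt2 and -0.18 to 0.055 for Psat1. Over all 60 values of the 10 genes, 42 of 760 alternative values changed sign, none past the threshold, in values no larger than 0.10.

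The labels do not say what a shared replicate number marks. Deviations of same-numbered libraries correlated above 0.1 in 4 of 6 pairs of groups, most between the Tfh and non-Tfh sorts of the same vector (0.240 with Bach2 and 0.208 with empty vector), and at 0.0263 and -0.00413 in the other pairs. Whether those libraries share a preparation is not known. With the number as a block the average over both cell types called 2 of the 10, Psat1 at adjusted p = 0.0284, and the block changed no other call on the 10. Over all genes, with the block the vector called 473 genes in Tfh cells, 207 in non-Tfh cells and 975 on average, and the interaction 3. Without the block these were 196, 100, 605 and 0.

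Without the low-count filter the vector called 736 genes in Tfh cells, 332 in non-Tfh cells and 1255 on average, and the interaction 37. DESeq2 called 316 in Tfh cells and 6 for the interaction. With 1 library left out the counts were 21 to 254 in Tfh cells, 17 to 133 in non-Tfh cells, 190 to 764 on average, 1922 to 2735 and 1341 to 2698 between cell types with Bach2 and with empty vector (2796 and 2515 with all libraries), and 0 to 1 for the interaction.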

Other observations

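Genes outside the 10 with the most similar profiles were sought for Slc7a5 and Phgdh, as the root mean square difference of log2 CPM, each gene centred on its own mean over the 8 libraries, among 6988 genes with a mean of at least 20 CPM. For Slc7a5, whose own centred profile had a root mean square of 0.64, the nearest were Crybg1 (0.09), Plp2 (0.10), Bysl (0.11) and Ptger4 (0.12). Bysl takes part in ribosome assembly and Ptger4 is a prostaglandin E2 receptor. Crybg1, for example, averaged 121 and 134 CPM in Tfh cells with Bach2 and with empty vector, and 307 and 338 CPM in non-Tfh cells with Bach2 and with empty vector. For Phgdh, with a root mean square of 0.23, the nearest were the helicase gene Mcm7 (0.05), the splicing gene Snrpa1 (0.06), Nudt5 (0.06) and the condensin gene Ncapg (0.06). Mcm7 averaged 142 and 192 CPM in Tfh cells with Bach2 and with empty vector, and 203 and 209 CPM in non-Tfh cells with Bach2 and with empty vector. Likeness over 8 libraries is a description, since the libraries share their groups.

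Among the 10 genes themselves, the most alike profiles on that measure were Slc1a5 and Slc38a1 (0.10), and the least alike Slc7a5 and Slc1a5 (0.76). Phgdh and Psat1 differed by 0.15. The chains of the heterodimer, Slc7a5 and Slc3a2, were thus not the nearest pair.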
